A study of Mus musculus with 5 samples.

Results

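The mammalian opioid system was followed here through its 7 genes, the 3 peptide precursor genes Penk, Pdyn and Pnoc and the 4 receptor genes Oprm1, Oprd1, Oprk1 and Oprl1, out of the 22532 genes counted in single nuclei of the mouse central amygdala (CeA). The genes were chosen by name, and all 7 were found in the gene lists of the 5 libraries. Each library held nuclei from the microdissected CeA of 2 C57BL6 mice, a male and a female, whose tissue was pooled. The methods name the wild-type strain C57BL/6NRj and a C57BL/6N background for the transgenic mice. Libraries fed 1 and fed 2 came from 8-week-old fed mice, fasted 1 from 8-week-old mice fasted for 20 hours and fasted 2 from 8-week-old mice fasted for 21 hours. Library fed 3 came from fed Htr2a-Cre mice of 12 weeks, in which a Cre recombinase driven by a bacterial artificial chromosome with the promoter of the serotonin receptor gene Htr2a switched on mCherry from an injected virus. Age, genotype and virus therefore cannot be told apart in that library. Because the mice of a library were pooled, the libraries are the replicates. The p-values of fed against fasted, where no block is used, measure the spread between pools. With the replicate number as a block, they measure how the difference varies between the pairs fed 1 with fasted 1 and fed 2 with fasted 2. Library fed 3 is alone in its block and adds nothing to that difference. In the comparisons of classes and in the interaction each library has its own term. Those p-values measure how the differences between classes vary over the libraries, and the class sums of a library are otherwise taken as independent.

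Opioid peptides are cut out of larger precursors in the secretory pathway. Penk encodes proenkephalin, the source of the enkephalins, which act on the delta receptor (Oprd1) and the mu receptor (Oprm1). Pdyn encodes prodynorphin, whose dynorphins prefer the kappa receptor (Oprk1), and Pnoc encodes prepronociceptin, whose nociceptin acts on the nociceptin receptor (Oprl1). All 4 receptors couple to inhibitory G proteins, which lower cyclic AMP and open potassium channels. The CeA, a largely inhibitory nucleus that takes part in feeding, fear and pain, is known for its enkephalin, dynorphin and nociceptin neurons.

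The genes that are compared below differ in what they encode, so the stretch that gives each precursor its opioid peptides was read from the mouse genome GRCm39. Penk lies on the minus strand at chr4:4132722-4141856, Pdyn on the minus strand at chr2:129528469-129541945 and Pnoc on the minus strand at chr14:65638122-65663196. Every line below shows 27 bases of the coding strand, 5′ to 3′. The capitals mark the 15 bases that encode the opioid core. The 6 bases before it encode paired basic residues, the kind of site at which the precursors are cut. The 6 bases after it also encode paired basic residues, except in Pnoc and in copies 4 and 7 of Penk, but these need not be a cut site. Penk holds 7 such cores in its coding exon 2, of which 6 encode Met-enkephalin and copy 6 encodes Leu-enkephalin. Copies 1 and 6 are shown, 1 for each kind of core.
Penk copy 1, Met-enkephalin core, chr4:4134328-4134354: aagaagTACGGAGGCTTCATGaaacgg
Penk copy 6, Leu-enkephalin core, chr4:4133935-4133961: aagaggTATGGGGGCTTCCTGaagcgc
Pdyn holds 3 cores in its coding exon 4, and all 3 encode Leu-enkephalin, which is also the start of the dynorphins. They are all shown, since they are the whole opioid content of the gene.
Pdyn copy 1, chr2:129530152-129530178: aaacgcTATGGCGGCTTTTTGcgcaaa
Pdyn copy 2, chr2:129530044-129530070: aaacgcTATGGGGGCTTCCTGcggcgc
Pdyn copy 3, chr2:129529987-129530013: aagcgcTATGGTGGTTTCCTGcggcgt
Pnoc holds 1 core in its coding exon 3, the start of nociceptin, whose core is not that of an enkephalin.
Pnoc copy 1, nociceptin start, chr14:65642321-65642347: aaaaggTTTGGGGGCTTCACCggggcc
The receptor genes lie at chr10:6708506-6988198 (Oprm1, plus strand), chr4:131838037-131871842 (Oprd1, minus strand), chr1:5658667-5676375 (Oprk1, plus strand) and chr2:181356605-181363728 (Oprl1, plus strand). Reads in introns were counted, and the 7 genes span from 7.12 kb (Oprl1) to 279.7 kb (Oprm1), so levels are compared between cells and libraries and not between genes.

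A total of 7161 nuclei had 500 to 8000 detected genes and fewer than 0.8% mitochondrial UMIs (unique molecular identifiers, each standing for a captured RNA molecule). They held 9763452 (fed 1) to 29703855 UMIs (fasted 2) per library, with medians of 6608 to 16367 UMIs per nucleus, and any pair of libraries shared at most 1 barcode. Inhibitory nuclei, those with a UMI of Gad1, Gad2 or Slc32a1 and of no other class, numbered 5686. Of these, 2492 (43.8%) met the raw UMI gate of exactly 1 of 10 neuronal classes named after their leading marker, 39 met several and 3155 met none. The classes held 455 nuclei (Prkcd), 289 (Calcrl), 148 (Sst), 224 (Dnah5), 82 (Tac1), 83 (Vdr), 105 (Dlk1), 335 (Foxp2), 614 (Rarb) and 157 (Pde1c). The study places neurons with Foxp2 in the intercalated cell masses, those with Rarb in the amygdalostriatal area and those with Pde1c in the IPAC, an interstitial nucleus by the anterior commissure, so these 3 classes border the CeA. The study's largest cluster in the medial CeA, marked by Il1rapl2, had no gate here. Il1rapl2 was the leading gene of the ungated nuclei, followed by Zfp536, Sox6, 6330411D24Rik and Nxph1. Zfp536 was also among the leading genes of oligodendrocytes, and Sox6 and Nxph1 among those of their precursors. The ungated nuclei are therefore not read as that cluster alone. No opioid gene entered a gate.

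Levels are given in CPM, the UMIs of a gene per 1000000 UMIs summed over the nuclei of a class in a library. Pooled over the libraries, Gad2, which makes GABA, stood at 226 CPM or more in every class, and Slc17a7, a marker of excitatory neurons, at 0.727 CPM or less. The gates favour such values, since they asked for a UMI of Gad1, Gad2 or Slc32a1. Nuclei that met a gate on Slc17a7 and Slc17a6 had been removed before. The levels therefore describe the classes and do not test that they are inhibitory. Free RNA gives every nucleus some UMIs of abundant genes. Barcodes that fell outside the bounds held 134 to 239 CPM of Penk, and astrocytes, which serve here as the reference for free RNA, held 34.9 ± 29.9 CPM of Penk (SD, n = 5), 20.0 ± 14.5 of Oprm1, 3.64 ± 3.48 of Pdyn, 3.45 ± 2.41 of Oprk1, 2.26 ± 2.11 of Oprd1, 1.61 ± 2.22 of Pnoc and 1.25 ± 1.95 of Oprl1. Class levels near these values are not told apart from background here. Astrocytes had a median of 3738 UMIs per nucleus, against 11572 (Pde1c) to 14689 (Dlk1) in the neuronal classes. Their gate also allowed at most 1 UMI of Gad1, Gad2 and Slc32a1 together. Equal CPM therefore need not mean equal free RNA per nucleus, and a level near theirs does not show whether a class lacks the RNA. Whether astrocytes make any of these RNAs themselves was not tested.

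The opioid genes were spread unevenly over the neuronal classes. Each class was compared with the mean of the log levels of the other 9 classes by edgeR's quasi-likelihood test on summed counts, with the library as a block and Benjamini-Hochberg adjustment over all 8547 genes tested. Oprl1 was too sparse for the filter on low counts. The other 6 genes gave 60 pairs of gene and class, of which 38 passed an adjusted p of 0.05, 24 higher in the class and 14 lower. All 6 also differed among the classes in the joint test, against 59.4% of all genes tested, with the largest adjusted p at 2.02e-11 (Pnoc). The filter keeps a gene with enough counts in a few sums, so a gene high in 1 class can pass through that class. For Pnoc the highest sums were those of Vdr, so its entry into these tests favours a difference there. The Dnah5 class differed in all 6 genes, against 27.6% of all genes in that contrast. The Sst, Tac1 and Dlk1 classes each differed in 5 of the 6, against 18.8%, 20.0% and 20.6% of all genes. The Pde1c class differed in 4, against 21.4%. The Calcrl, Vdr and Rarb classes each differed in 3, against 22.2%, 17.0% and 19.7%. The Prkcd and Foxp2 classes each differed in 2, against 36.8% and 30.5%, shares near or at the background.

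**Figure D1:**
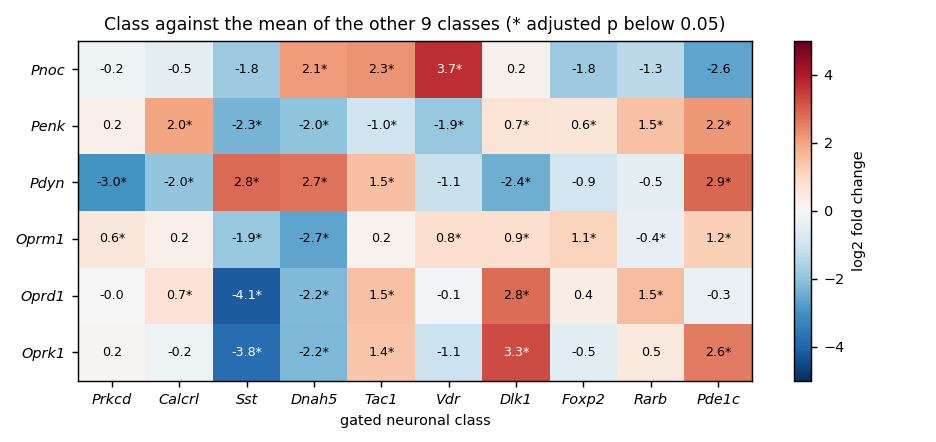
Log2 fold change of 6 opioid genes (vertical) in each gated neuronal class (horizontal) against the mean of the other 9 classes, from edgeR over 5 libraries (4 for the Vdr class). Red is higher and blue is lower in the class, and an asterisk marks an adjusted p below 0.05. Penk and Pdyn are both called in 6 classes and have opposite signs in 5 of them, and the Sst and Dnah5 columns are blue for all 3 receptor genes.

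Penk split the classes into a high and a low group. In the order fed 1, fed 2, fed 3, fasted 1 and fasted 2, the Pde1c class held 527, 252, 479, 344 and 268 CPM, the Calcrl class 285, 339.9, 383, 389 and 331 CPM and the Rarb class 264, 221, 229, 309.6 and 239 CPM. These 3 classes were high in every library, and their ranges overlapped with their neighbours in the order. Next came Dlk1 (165 ± 69.5 CPM), Foxp2 (138 ± 28.6) and Prkcd (124 ± 24.1), and then a step to Tac1 (52.0 ± 11.3), where the ranges of the libraries no longer met. Dnah5 (28.5 ± 6.15), Vdr (25.0 ± 18.6, n = 4) and Sst (23.2 ± 15.7) closed the order, near the level of the astrocytes, which ran from 8.88 to 84.6 CPM and averaged 22.5 without fasted 2. Against the other classes Penk was 4.50-fold higher in Pde1c (log2 2.17, SE 0.14, edgeR adjusted p = 3.9e-20), 3.98-fold higher in Calcrl (log2 1.99, SE 0.12, adjusted p = 2.5e-21) and 2.78-fold higher in Rarb (log2 1.47, SE 0.12, adjusted p = 5.1e-16). It was 5.01-fold lower in Sst (log2 -2.33, SE 0.26, adjusted p = 5.6e-11), 3.99-fold lower in Dnah5 (log2 -2.00, SE 0.21, adjusted p = 5.1e-12) and 3.67-fold lower in Vdr (log2 -1.88, SE 0.29, adjusted p = 8.2e-07). The smaller differences in Tac1 (2.01-fold lower), Dlk1 (1.63-fold higher) and Foxp2 (1.54-fold higher) also passed, while Prkcd did not (log2 0.25, SE 0.13, adjusted p = 0.144). With the other classes pooled into 1 term, so that the spread among them counts as error, only the Penk calls in Sst and Dnah5 were kept. Those in Pde1c, Calcrl, Rarb, Vdr and Tac1 were lost. The log2 values in Dlk1 and Foxp2 turned to -0.06 and -0.17 and were not called.

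Pdyn marked fewer classes, and mostly those that were low in Penk. In the same library order the Sst class held 146, 51.2, 117, 33.5 and 42.6 CPM, the Dnah5 class 84.8, 50.5, 64.5, 56.8 and 69.3 CPM and the Pde1c class 78.7, 91.8, 54.6, 24.3 and 68.7 CPM. The Dnah5 class was the most even of them, and the Sst class varied most. The Tac1 class followed with 7.44, 0, 39.9, 57.3 and 46.9 CPM, and all other classes had means of 8.70 CPM or less. In the Prkcd (2.01 ± 1.22 CPM), Dlk1 (2.42 ± 3.56) and Calcrl (3.24 ± 2.33) classes Pdyn was under the astrocyte level. Pdyn was 7.23-fold higher in Pde1c (log2 2.85, SE 0.27, edgeR adjusted p = 4.1e-13), 7.03-fold higher in Sst (log2 2.81, SE 0.27, adjusted p = 7.5e-13) and 6.62-fold higher in Dnah5 (log2 2.73, SE 0.23, adjusted p = 4.4e-15). It was lower in Prkcd (log2 -2.99, SE 0.46, adjusted p = 2.6e-07), Dlk1 (log2 -2.42, SE 0.71, adjusted p = 0.0083) and Calcrl (log2 -1.98, SE 0.46, adjusted p = 0.00067). The Calcrl call was lost without fasted 2 (log2 -1.63, adjusted p = 0.0578). The Tac1 class was called higher (log2 1.52, SE 0.39, adjusted p = 0.0023), but its libraries ran from 0 to 57.3 CPM, and without fasted 2 the value was 1.15 with an adjusted p of 0.155. Of the Pdyn calls, only that in Prkcd was kept with the other classes pooled into 1 term.

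Pnoc was concentrated in the small Vdr class. This class held 56.3, 43.8, 27.6 and 33.3 CPM in fed 1, fed 3, fasted 1 and fasted 2, and fed 2 was left out because it had 9 of these nuclei, under the minimum of 10. The lowest of these libraries was above the highest of the next class in the order, Dnah5, which held 15.9, 15.4, 12.1, 14.7 and 11.9 CPM. The Tac1 class held 7.44, 18.3, 0, 7.17 and 26.8 CPM, and the other 7 classes had means of 3.83 CPM or less. Pnoc was 12.8-fold higher in Vdr (log2 3.67, SE 0.42, edgeR adjusted p = 3.8e-10), 4.35-fold higher in Dnah5 (log2 2.12, SE 0.39, adjusted p = 1.5e-05) and 4.78-fold higher in Tac1 (log2 2.26, SE 0.52, adjusted p = 0.00072). The filter on low counts can have let Pnoc in through its Vdr sums. With no filter the log2 values were 3.65 in Vdr (edgeR adjusted p = 6.8e-20), 2.15 in Dnah5 (adjusted p = 2.6e-08) and 2.19 in Tac1 (adjusted p = 4.8e-05). The Tac1 call was lost without fasted 2 (adjusted p = 0.0531). Only the Vdr call was kept with the other classes pooled into 1 term. The ungated inhibitory nuclei held 214 of the 392 Pnoc UMIs of all inhibitory nuclei, at 4.71 ± 1.01 CPM. They were 3155 of the 5686 inhibitory nuclei, so this is about their share of the nuclei.

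**Figure D2:**
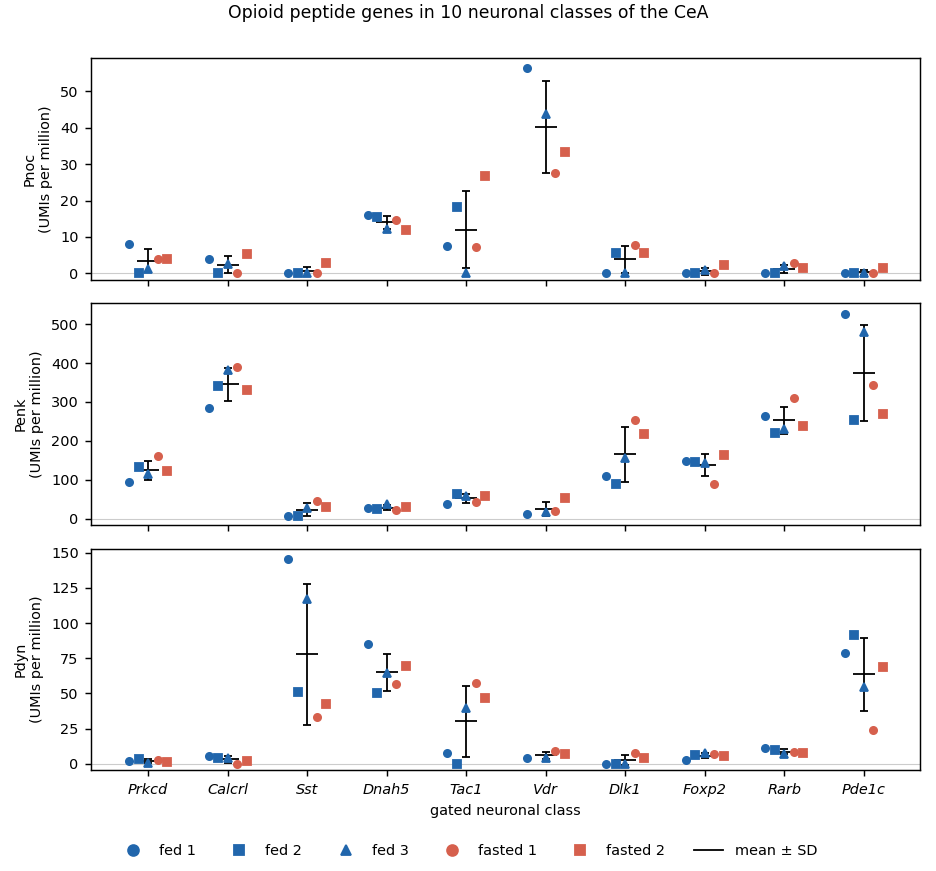
Levels of the 3 opioid precursor genes in CPM (vertical, 1 panel a gene) in the 10 gated neuronal classes (horizontal). Points are libraries and bars are the mean ± SD over 5 libraries (4 for the Vdr class). Penk is highest in Pde1c, Calcrl and Rarb, Pdyn in Sst, Dnah5 and Pde1c, and Pnoc in Vdr, where the lowest library (27.6) is above every library of the other classes.

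Among the receptor genes, Oprm1 was the most widely spread. In the same library order the Pde1c class held 189, 168, 173, 199 and 146 CPM, the Foxp2 class 155, 173, 155, 157 and 216 CPM and the Dlk1 class 159, 226, 173, 142 and 118 CPM. Vdr (152 ± 24.4, n = 4), Prkcd (130.1 ± 16.7), Calcrl (101 ± 13.2), Tac1 (93.2 ± 39.8) and Rarb (68.8 ± 15.5) followed, each with a range that overlapped the next. Below Rarb the ranges parted, and the Sst class held 7.66, 29.5, 36.0, 22.3 and 27.5 CPM and the Dnah5 class 5.30, 8.78, 25.2, 2.10 and 26.0 CPM, which is near the astrocyte level. Against the other classes Oprm1 was 6.29-fold lower in Dnah5 (log2 -2.65, SE 0.20, edgeR adjusted p = 1.3e-16) and 3.71-fold lower in Sst (log2 -1.89, SE 0.22, adjusted p = 2.9e-10). It was 2.27-fold higher in Pde1c (log2 1.18, SE 0.14, adjusted p = 5.4e-10) and 2.14-fold higher in Foxp2 (log2 1.10, SE 0.12, adjusted p = 1.6e-11). Increases of 1.81-fold in Dlk1, 1.80-fold in Vdr and 1.48-fold in Prkcd also passed. The 1.32-fold lower level in Rarb passed (log2 -0.40, SE 0.12, adjusted p = 0.0132) but was lost without fed 3 (log2 -0.32, adjusted p = 0.143) or without fasted 2 (log2 -0.36, adjusted p = 0.0527). Of the Oprm1 calls, only those in Dnah5 and Sst were kept with the other classes pooled into 1 term.

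Oprd1 and Oprk1 were both highest in the Dlk1 class. Oprd1 reached 79.7, 28.2, 59.0, 39.5 and 64.6 CPM there, and Oprk1 reached 101, 127, 81.2, 63.2 and 105 CPM. Oprd1 was 6.87-fold higher in Dlk1 than in the other classes (log2 2.78, SE 0.25, edgeR adjusted p = 6.4e-14), and Oprk1 was 9.68-fold higher (log2 3.27, SE 0.24, adjusted p = 1.8e-17). The Rarb class carried an even level of Oprd1, at 23.9, 22.9, 22.9, 23.0 and 21.7 CPM, and was 2.90-fold above the other classes (log2 1.54, SE 0.20, adjusted p = 8.3e-09). The ungated nuclei, which are not among these classes, held a similar 22.8 ± 3.95 CPM. They had 1025 of the 1540 Oprd1 UMIs of all inhibitory nuclei and were 3155 of the 5686 inhibitory nuclei, which together held 19.0 ± 2.41 CPM. The Tac1 class held 23.9 ± 13.8 CPM of Oprd1 (log2 1.46, SE 0.35, adjusted p = 0.00099). The rise in Calcrl to 13.0 ± 3.44 CPM (log2 0.71, SE 0.26, adjusted p = 0.0345) was lost without fed 2 (log2 0.63, adjusted p = 0.125), fed 3 (0.61, 0.157) or fasted 1 (0.66, 0.0881), and its log2 value was -0.05 with the other classes pooled.

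Oprk1 was next highest in the Pde1c class, where the libraries fell apart into fed 2 and fasted 2 at 87.95 and 89.8 CPM and fed 1, fed 3 and fasted 1 at 31.5, 28.0 and 29.1 CPM. The class was still called higher (log2 2.60, SE 0.26, edgeR adjusted p = 1.4e-12), as was Tac1, with 14.9, 61.0, 31.0, 21.5 and 15.6 CPM (log2 1.40, SE 0.36, adjusted p = 0.0023). The Tac1 call rested on fed 2, and without it the log2 value was 0.75 with an adjusted p of 0.273. The Sst and Dnah5 classes were lowest in both genes. In the Sst class, 1 UMI of Oprd1 and 2 UMIs of Oprk1 were counted in 148 nuclei over the 5 libraries, and in the Dnah5 class 7 and 9 UMIs in 224 nuclei. The corresponding log2 values were -4.14 (SE 0.72, adjusted p = 6.5e-06) and -3.81 (SE 0.70, adjusted p = 2e-05) in Sst and -2.22 (SE 0.54, adjusted p = 0.00087) and -2.23 (SE 0.51, adjusted p = 0.00042) in Dnah5, and at such counts they depend on the prior count. The Oprd1 call in Dnah5 was lost without fasted 2, when no UMI was left in 3 of the 4 libraries. With the other classes pooled into 1 term, Oprd1 kept its calls in Dlk1, Sst and Dnah5, and Oprk1 only that in Dlk1.

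Oprl1 was low throughout. The Vdr class had 24 UMIs, which include 2 of fed 2, a library left out of its CPM values. It held 17.3, 11.9, 45.9 and 17.5 CPM in fed 1, fed 3, fasted 1 and fasted 2, and the other 9 classes had means of 3.06 to 9.82 CPM. The ranges of neighbours in this order all overlapped. With no filter on low counts Oprl1 could be tested, and it was called higher in Vdr (log2 1.30, SE 0.40, edgeR adjusted p = 0.0146) and lower in Pde1c (log2 -1.75, SE 0.54, adjusted p = 0.0136). The class with the highest mean of Pnoc also had the highest mean of Oprl1, its receptor gene. None of its 73 nuclei thinned to 4000 UMIs held both, beside a product of the separate shares of 1.46 ± 1.12% (n = 4). With so small a product in 73 nuclei, this cannot show whether Pnoc and Oprl1 share cells. Over the means of the 10 classes, which share libraries, the log levels of Pnoc and Oprl1 had a Pearson correlation of 0.731. The other pairs of peptide and receptor genes had -0.320 (Pdyn and Oprk1), 0.534 (Penk and Oprd1) and 0.565 (Penk and Oprm1). The largest value among the opioid genes, 0.777, was that of the receptor genes Oprd1 and Oprk1. A match of peptide and receptor is therefore not read from these values.

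**Figure D3:**
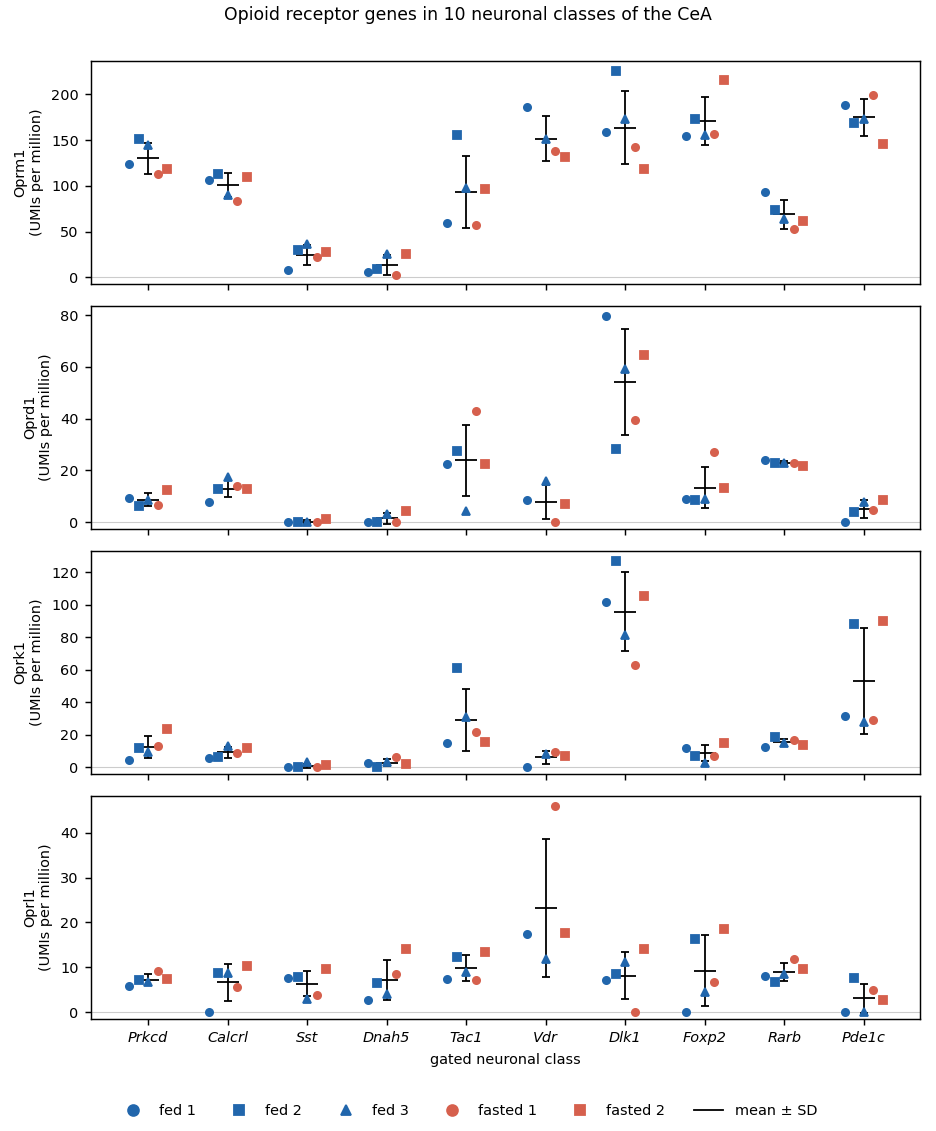
Levels of the 4 opioid receptor genes in CPM (vertical, 1 panel a gene) in the 10 gated neuronal classes (horizontal). Points are libraries and bars are the mean ± SD over 5 libraries (4 for the Vdr class). Oprm1 is low in Sst and Dnah5, Oprd1 and Oprk1 are highest in Dlk1, and in Pde1c the Oprk1 points lie in 2 groups, at 87.95 and 89.8 and at 28.0 to 31.5.

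The share of nuclei with a UMI of each gene was taken after every nucleus was thinned to 4000 UMIs, so that libraries of different depth could be set side by side. Penk was found in 66.1 ± 15.9% of Pde1c nuclei and in 66.1 ± 7.56% of Calcrl nuclei (SD, n = 5), with median depths of 11864 and 13736 UMIs before thinning. Astrocytes, the reference for free RNA, had 13.6 ± 9.51% (n = 4) at a median depth of 5023. The shares in Tac1 (12.8 ± 4.97%), Dnah5 (9.10 ± 2.83%), Sst (7.95 ± 4.82%) and Vdr (6.36 ± 5.38%) were no higher. Because the astrocytes were shallower before thinning, this does not show whether those classes lack Penk. Pdyn was found in 22.9 ± 13.3% of Sst and 21.6 ± 5.13% of Dnah5 nuclei, against 3.21 ± 2.64% of astrocytes. Pnoc was found in 14.5 ± 7.88% of Vdr nuclei (n = 4) and 1.75 ± 0.391% of all inhibitory nuclei, against 1.56 ± 3.13% of astrocytes. Oprm1 was found in 46.9 ± 10.6% of Pde1c and 45.1 ± 12.9% of Dlk1 nuclei, against 3.90 ± 3.23% of astrocytes. No Sst nucleus of 143 had Oprd1 or Oprk1 at this depth, which allows up to 2.10% of nuclei with a UMI by counting error alone and sets no limit on nuclei that express the genes. Without thinning, the shares were higher, with 83.7% for Penk in Pde1c, 45.8% for Pdyn in Sst, 39.9% for Pnoc in Vdr and 68.5% for Oprm1 in Pde1c.

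At this depth 35.8 ± 3.17% of inhibitory nuclei had at least 1 of the 3 peptide genes and 37.3 ± 3.15% at least 1 of the 4 receptor genes. The peptide genes seldom met in a nucleus. Penk and Pdyn were found together in 1.19 ± 0.331% of inhibitory nuclei, below the product of their separate shares (1.51 ± 0.176%) in 5 of 5 libraries, and no nucleus held all 3 peptide genes. The Pde1c class, high in both, had Penk and Pdyn together in 9.21 ± 6.30% of nuclei, beside a product of 9.52 ± 4.76%. On average the joint share was above the product in Dnah5 (2.42 against 1.90%), Tac1 and Foxp2 and below it in the other classes. All inhibitory nuclei mix classes that differ in both genes, so the pooled value does not show how they combine within a class. Over all inhibitory nuclei 1.64 ± 0.308% had at least 2 of the 3 peptide genes and 5.56 ± 0.845% at least 2 of the 4 receptor genes, which form more pairs. These shares were 9.21 ± 6.30% and 5.36 ± 5.89% in the Pde1c class, 3.22 ± 2.33% and 0.752 ± 1.05% in the Dnah5 class and 1.49 ± 2.05% and 0% in the Sst class. In each of these classes the lowest library of either share was at 0%. Because the genes also differ in span, the order of the shares is not read as a difference between peptides and receptors. In the Dlk1 class 63.5 ± 8.17% of nuclei had at least 1 receptor gene and 27.8 ± 13.9% at least 2, and the largest pair was Oprm1 with Oprk1 (13.9 ± 7.19%). In the Sst class 7.28 ± 2.73% had a receptor gene and none had 2. These shares are descriptions at 1 depth, since undetected transcripts make every joint share too small.

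In the striatum, which borders this tissue, Penk is known from neurons with the dopamine receptor Drd2 and Pdyn from neurons with Drd1. The inhibitory nuclei were therefore divided by these receptor genes, a comparison added after the class levels had been seen and given with no test. There were 1470 nuclei with a Drd2 UMI and no Drd1 UMI and 365 with the reverse. Penk held 224, 183, 231, 296 and 182 CPM in the Drd2 nuclei and 115, 61.1, 104, 129.7 and 109 CPM in the Drd1 nuclei, with every Drd2 value above every Drd1 value. Pdyn held 3.62, 6.45, 5.38, 2.24 and 5.81 CPM in the Drd2 nuclei and 34.5, 36.2, 28.2, 35.4 and 35.2 CPM in the Drd1 nuclei, the opposite order, again without overlap. Oprk1, which encodes the receptor for dynorphin, held 12.1 ± 5.06 CPM in the Drd2 and 32.9 ± 7.58 CPM in the Drd1 nuclei, also without overlap. Oprm1 differed less, at 91.0 ± 7.56 and 114.5 ± 9.21 CPM, with the highest Drd2 library (100.4) below the lowest Drd1 library (106). Oprd1 (24.1 ± 4.63 and 16.0 ± 5.54 CPM), Oprl1 (9.79 ± 2.41 and 8.22 ± 4.45) and Pnoc (3.04 ± 0.460 and 4.51 ± 2.31) overlapped between the libraries. Within the libraries, Oprd1 was higher in the Drd2 nuclei of all but fasted 1, and Oprl1 and Pnoc went both ways.

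The division was also made within classes, beginning with Pde1c, which was high in both precursors. Its 80 Drd2 nuclei held 469 ± 84.7 CPM of Penk and 5.03 ± 4.12 CPM of Pdyn (n = 4 libraries with at least 10 such nuclei). Of its 37 Drd1 nuclei only fasted 2 had 10 or more, with 229 CPM of Penk, 147 of Pdyn and 164 of Oprk1. The 37 nuclei held 279.8 CPM of Penk (95% exact Poisson interval 238 to 327, for counting error only) and 151 CPM of Pdyn (121 to 186) when pooled over the 5 libraries. Oprk1 was at 10.7 ± 9.17 CPM in the Drd2 nuclei and at 130.3 (103 to 163) in the pooled Drd1 nuclei, while Oprm1 was at 239.5 ± 29.2 and 71.3 (51.1 to 96.7). In the Rarb class 418 nuclei were of the Drd2 kind and 21 of the Drd1 kind. The 21 held 55.2 CPM of Pdyn (32.7 to 87.2) and 98.1 CPM of Oprk1 (67.1 to 139) when pooled, beside 2.54 ± 2.73 and 11.6 ± 3.43 CPM in the 418. In the Foxp2 class pooled Oprk1 was at 9.25 CPM (4.43 to 17.0) in 77 Drd1 nuclei and at 7.42 CPM (0.188 to 41.3) in 10 Drd2 nuclei, with intervals that overlap. In the ungated nuclei Oprk1 (11.5 ± 7.61 CPM in Drd2 and 19.7 ± 12.5 in Drd1 nuclei) and Penk (136 ± 49.1 and 57.3 ± 31.0) overlapped between the libraries. Only Pdyn (5.05 ± 1.73 and 22.2 ± 10.7) of these 3 genes did not. Both kinds of nuclei came from the same libraries, and within every library Penk was higher in the Drd2 nuclei. In library order the Penk pairs were 126 and 59.3, 87.0 and 19.8, 142 and 40.4, 216 and 103, and 109.6 and 63.6 CPM. Oprk1 was higher in the Drd1 nuclei of every library except fasted 1.

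**Figure D4:**
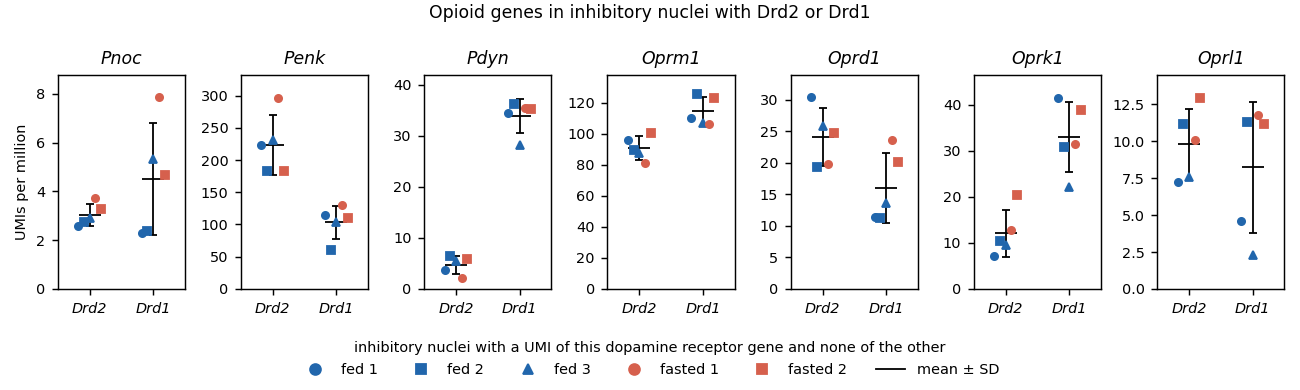
Levels of the 7 opioid genes in CPM (vertical, 1 panel a gene) in inhibitory nuclei with a UMI of Drd2 and none of Drd1, or the reverse (horizontal). Points are the 5 libraries and bars the mean ± SD. Penk is higher in the Drd2 nuclei (223 against 104 on average), and Pdyn (4.70 against 33.9) and Oprk1 (12.1 against 32.9) are higher in the Drd1 nuclei.

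For each opioid gene the 3 genes with the most similar order over the 10 classes were taken by Pearson correlation of mean log2(CPM + 1), among 7890 genes that reached 20 CPM in a class. With 10 points from the same libraries these are descriptions. Pnoc was followed by Ap1b1 (r = 0.964), Gga2 (0.958) and Capn5 (0.934), each highest in Vdr. Penk was followed by Erlin1 (0.945) and Coro2b (0.942), both highest in Pde1c, and by Rasgef1b (0.914), highest in Dlk1. Pdyn was followed by Acer3 (0.923), Pfkfb3 (0.914) and Ebf1 (0.910), the last of which is part of the Sst gate. Oprm1 was followed by Rpl37a (0.902), Drc1 (0.886) and Zfp12 (0.885). Oprd1 was followed by Kcnk2 (0.953), which encodes a potassium channel, Rnaseh2b (0.919) and Esr1 (0.919), the estrogen receptor gene. The genes most like Oprk1 included Syt10 (0.910) and Lrrc8c (0.907), and Oprl1 was followed by Washc5 (0.962), Hsf4 (0.928) and Gfod2 (0.919).

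Other genes make, break down and relay opioid signals. Of 63 such genes 48 passed the filter, and 213 of their 480 pairs of gene and class were called, 112 higher and 101 lower, with 41 genes called at least once. The same contrasts called 17.0% (Vdr) to 36.8% (Prkcd) of all genes. The median log2 value was -0.01, as that of all genes lay between -0.01 and 0.02 in the 10 contrasts. By class the list ran from 13 of 48 genes called in Sst and 14 in Vdr to 26 in Dnah5 and Rarb and 28 in Prkcd. These genes have many other roles, and most serve other peptides and receptors too. Among precursors and processing enzymes, 28 of 60 pairs were called. Pam, which amidates peptides, was 6.48-fold lower in Prkcd (46.9 ± 9.42 CPM, log2 -2.70, SE 0.12, edgeR adjusted p = 7.5e-28). The precursor convertase gene Pcsk2 was 3.41-fold lower in Vdr (log2 -1.77, SE 0.20, adjusted p = 2e-10), and Pcsk1 was 3.31-fold higher in Dnah5 (log2 1.73, SE 0.33, adjusted p = 3.2e-05). Among the genes of peptide breakdown and scavenging, 11 of 50 pairs were called, a share near that of all genes, led by Mme, which encodes the enkephalin-cleaving neprilysin, at 27.2 ± 6.63 CPM in Tac1 (log2 2.65, SE 0.42, adjusted p = 1.4e-06). Ece2 in Tac1 (log2 1.03) and Ece1 in Foxp2 (log2 -0.53) followed.

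Among receptor G proteins 19 of 70 pairs were called, also near the share of all genes, led by Gng2 and Gnai1 in Dlk1 (log2 1.48 and -1.06) and Gnaz in Sst (log2 0.82). Among effectors 77 of 140 pairs were called. The adenylyl cyclase gene Adcy8 was 12.1-fold higher in Tac1 (235 ± 70.9 CPM, log2 3.60, SE 0.19, edgeR adjusted p = 1.5e-22), and Kcnj6, a subunit of the G protein-gated potassium channel, was 9.40-fold higher in Foxp2 (408 ± 31.8 CPM, log2 3.23, SE 0.13, adjusted p = 1.3e-29). Adcy2 was 4.23-fold higher in Dlk1 (log2 2.08, SE 0.10, adjusted p = 6.3e-24). Among desensitization and regulator genes 69 of 130 pairs were called, led by lower Rgs8 and Wls in Prkcd (log2 -2.77 and -2.17) and Rgs14 in Tac1 (log2 -2.06). Among transcription factors 9 of 30 were called, within the range of all genes. They included Kcnip3, which encodes DREAM, a repressor known from the Pdyn gene, at a 3.01-fold lower level in Dnah5 (32.7 ± 18.0 CPM, log2 -1.59, SE 0.21, adjusted p = 6.7e-09), and Crem in Rarb (log2 -0.62).

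Fasting was the treatment of the study, and the opioid genes were compared between the 3 fed and the 2 fasted libraries in 9 neuronal classes, in the ungated and in all inhibitory nuclei, and in 3 glial populations. The Vdr class was left out because fed 2 had 9 of its nuclei. None of the 49 pairs of gene and population that passed the filter was called by edgeR's quasi-likelihood test. At an unadjusted p under 0.05 there were 5, its likelihood ratio test called 0 with 5 at an unadjusted p under 0.05, and DESeq2 called 0 with 2, with 5 adjusted p-values not given. Few genes were called at all, with 0.545% of the genes tested in Prkcd, 0.0707% in Calcrl, 0.0180% in Sst, 0.286% in Dnah5, 0.0440% in Tac1, 0.580% in Dlk1, 0.0111% in Foxp2, 0.0214% in Rarb and 0.154% in Pde1c. In the ungated and in all inhibitory nuclei 0% were called, and in astrocytes, oligodendrocytes and their precursors 0.244%, 0.114% and 0.154%. The kept nuclei of the fasted libraries had the highest median mitochondrial shares, 0.317% and 0.237% against 0.0529% to 0.136% in the fed libraries, and the part of this in the comparison was not tested.

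The lowest adjusted p belonged to Penk in the Dlk1 class. It held 109, 90.2 and 155 CPM in the fed and 253 and 218 CPM in the fasted libraries, so every fasted value was above every fed value. The log2 difference of fasted over fed was 0.95 (SE 0.28, edgeR unadjusted p = 0.0022, adjusted p = 0.173). Libraries of the same number were taken as prepared together, from the names in the study's supplement, and within these pairs the log2 ratios were 1.22 and 1.27. With the replicate number as a block the difference was 1.19 (SE 0.29) and was called at an adjusted p of 0.038, against 0.767% of all genes tested in that fit. The class had 13 to 38 nuclei per library. After thinning to 4000 UMIs, Penk was found in 46.2, 22.2 and 47.1% of its nuclei in the fed and in 70.6 and 50.0% in the fasted libraries, again without overlap and given with no test. Whether more nuclei held Penk or each held more was not tested. Penk was also higher in both fasted libraries among the barcodes outside the bounds (142, 141, 134 CPM fed and 164, 239 CPM fasted). Below the filter on low counts, fasted values were also all above fed ones in Sst (7.66, 7.88, 27.0 and 44.7, 28.9 CPM). The same held in oligodendrocyte precursors (28.2, 8.39, 21.9 and 42.9, 59.9 CPM). In the other populations compared they overlapped. The part of free RNA in the Dlk1 difference was not tested. In the classes where Penk was most abundant no difference was called, with log2 values of 0.10 (SE 0.17) in Calcrl and 0.21 (SE 0.17) in Rarb. The Pde1c class had means of 419.6 CPM in the fed and 306 CPM in the fasted libraries (log2 -0.48, SE 0.29, adjusted p = 1.00).

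Pdyn in the Sst class held 146, 51.2 and 117 CPM in the fed and 33.5 and 42.6 CPM in the fasted libraries. Every fasted value was below every fed value, yet fed 2 was closer to the fasted libraries than to the other fed ones. The log2 difference was -1.27 (SE 0.41, edgeR adjusted p = 0.818), and within the pairs taken as prepared together the log2 ratios were -2.12 and -0.26. Oprk1 in the Prkcd class held 4.68, 11.5 and 9.60 CPM in the fed and 13.1 and 23.4 CPM in the fasted libraries (log2 1.10, SE 0.41, adjusted p = 0.410). Pdyn in the Tac1 class (log2 1.71, SE 0.79, adjusted p = 0.998) and Oprm1 in the Dlk1 class (log2 -0.62, SE 0.29, adjusted p = 0.684) were the others at an unadjusted p under 0.05. In all inhibitory nuclei Pdyn stood at 16.0, 15.3 and 14.9 CPM in the fed and 15.2 and 14.0 CPM in the fasted libraries (log2 -0.11, SE 0.15, adjusted p = 0.999). Pnoc stood at 5.38, 3.55 and 4.40 CPM against 5.38 and 5.69 CPM (log2 0.31, SE 0.24, adjusted p = 0.999). In the Vdr class, which was highest in Pnoc but left out of these tests, the order was the opposite. It held 56.3 and 43.8 CPM of Pnoc in fed 1 and fed 3 and 27.6 and 33.3 CPM in fasted 1 and fasted 2. These values did not overlap, but that of fasted 1 rested on 3 UMIs, and they are given with no test.

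Oprm1 in all inhibitory nuclei held 102, 113 and 101 CPM in the fed and 76.5 and 102 CPM in the fasted libraries, which overlapped. The log2 difference was -0.27 (SE 0.14, edgeR adjusted p = 0.987), and within the pairs the log2 ratios were -0.42 and -0.14. With the replicate number as a block it was -0.31 (SE 0.09, adjusted p = 0.030), a call that stood beside 3.80% of all genes tested in that fit. As for Penk in the Dlk1 class, this fit drew the difference from those pairs and not from fed 3. The block called 2 of 54 pairs in all, the other being Penk in the Dlk1 class. Of the 63 other opioid pathway genes, 60 were tested in at least 1 population, and none of their 564 pairs was called without the block. With it, 11 of 597 pairs were called, against 0.784% of all genes in Calcrl, 0.884% in Rarb, 2.32% in the ungated nuclei and 2.29% in astrocytes. Pcsk1n, an inhibitor of a precursor convertase, was called higher in fasted libraries in the Calcrl class (log2 1.13, SE 0.30, adjusted p = 0.0248), in all inhibitory nuclei (log2 0.68, SE 0.10, adjusted p = 1.6e-09) and in astrocytes (log2 2.58, SE 0.44, adjusted p = 1.9e-06). The largest of these values was that in astrocytes, the reference for free RNA. The part of free RNA in the Pcsk1n differences was not tested. Pcsk2 was also called higher in all inhibitory nuclei (log2 0.36, SE 0.11, adjusted p = 0.0337), and Wls, which encodes a carrier of Wnt proteins that also binds the mu receptor, lower (log2 -0.54, SE 0.14, adjusted p = 0.006). Kcnj6 in the Rarb class (log2 -0.79), Rgs12 in the ungated nuclei (log2 -0.84) and Rgs20 in astrocytes (log2 -0.77) were called lower under the block. The ungated nuclei also gave calls for Pcsk1n (log2 0.70), Pcsk2 (0.50) and Wls (-0.64).

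**Figure D5:**
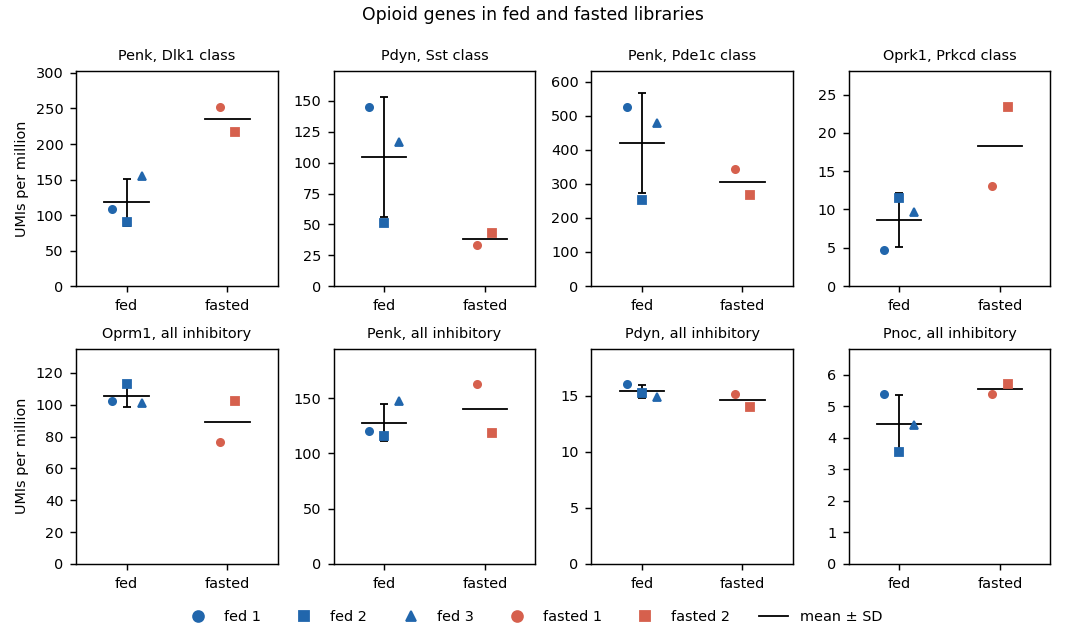
Levels in CPM (vertical, from 0) of opioid genes in the 3 fed and 2 fasted libraries (horizontal) for 8 pairs of gene and population. Points are libraries, with the same shape for libraries of the same number, lines are means and error bars the SD of the fed libraries. Penk in the Dlk1 class and Pdyn in the Sst class do not overlap between the states, whereas Penk and Oprm1 in all inhibitory nuclei do.

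Whether fasting acted differently on a class than on the other classes was tested as an interaction. None of the 60 pairs was called by edgeR's quasi-likelihood test, with 8 at an unadjusted p under 0.05. The likelihood ratio test called 0 with 10 at an unadjusted p under 0.05, and DESeq2 called 0 with 6, with 17 adjusted p-values not given. Over all genes 0.268% were called for Dnah5, 0.0859% for Dlk1, 0.0537% each for Tac1 and Vdr, 0.0107% each for Prkcd and Rarb and 0% for Calcrl, Sst, Foxp2 and Pde1c. The lowest adjusted p belonged to Penk in the Pde1c class, where the fasting effect minus that in the other classes was -0.94 on the log2 scale (SE 0.24, adjusted p = 0.353). This difference was called with no filter on low counts (-0.93, adjusted p = 0.0197) and without fed 2 (-1.14, adjusted p = 0.0288). For Penk in the Dlk1 class the difference from the other classes was 0.65 (SE 0.30, adjusted p = 0.624), and for Pdyn in the Sst class it was -1.70 (SE 0.56, adjusted p = 0.580). For Pnoc in the Vdr class, which entered without fed 2, the difference was -1.86 (SE 0.86, edgeR adjusted p = 0.713).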

How the data were processed

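Single nuclei of the CeA were sequenced in 5 libraries (3 fed, 2 fasted) with the 10x Chromium 3′ v3.1 chemistry. The deposited values are raw UMI counts per gene and barcode, which the authors made with Cell Ranger with intronic reads included and with Cre and mCherry added to the genome. The methods give version 5.0.0 and GRCm39, as does the file header for the version, while the submitters' notes name Cell Ranger 2.1.1 and mm10. The authors' cell calling came before deposit and their own filters after it. Nuclei with 500 to 8000 genes and mitochondrial UMIs under 0.8% were kept. Scrublet (scanpy 1.11.5) called 70 doublets (0.978%), which stayed in. Classes were gated on raw UMIs of markers that are not opioid genes, glia and interneurons of the basolateral amygdala first, and classes were not clustered.

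Counts were summed per class and library with at least 10 nuclei and tested with edgeR 4.0.16 (R 4.3.3) by the quasi-likelihood test with TMM, filterByExpr and Benjamini-Hochberg adjustment over all genes tested. The alternatives were edgeR's likelihood ratio test, DESeq2 1.42.0 (also its size factors), no filter, each library left out, a minimum of 1500 genes, thinning to 4000 UMIs, stricter gates, doublets removed, fed libraries only and the replicate number as a block. The pooling of the other classes and all alternatives of the interaction were added after the data had been seen. The study's supplement states that its datasets Fed_1 and Fast_1 shared a preparation, as did Fed_2 and Fast_2, while Fed_0 was prepared apart. The labels of the libraries name no batch. That their replicate numbers match these names, with fed 3 as Fed_0, was assumed, and both calls made under the block rest on it. As a check, deviations from the group means correlated at 0.343 and 0.459 over 13542 genes within the pairs, and with 2 fasted libraries the crossed pairs give the same values with the sign reversed. The pairs were also alike in depth. Median UMIs per nucleus were 8326 in fed 1 and 6608 in fasted 1, and 14886 in fed 2 and 16367 in fasted 2. Preparation and depth therefore cannot be told apart in this check. Exact 95% intervals and the limit for a count of 0 (3 counts) cover counting error only. The SE beside an edgeR log2 value is its absolute value divided by the square root of the F statistic. It is approximate and unreliable at low counts. The scripts were tested on simulated data with 200 changed genes.

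The members, the gene lists and the gates were chosen with earlier results of these data known. All 7 opioid genes are named, then the 3 called pathway genes of each role with the largest log2 fold change over all classes, 1 entry a gene, every pathway gene called between fed and fasted, and the 3 genes most similar to each opioid gene, of which 1 for Oprk1 is not reported here. Opioid cores were read from the GENCODE M39 coding exons on GRCm39. No protein sequence was used here.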

Additional observations from a re-analysis of the deposited data

How the results depend on the processing

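Of the 38 class calls, 8 kept the call in every fit that tested them, 30 lost it in at least 1, and 3 changed direction. With the other classes pooled into 1 term, so that the spread among them counts as error, 10 of 60 pairs were called. They were Penk and Oprm1 in Sst and Dnah5, Pdyn in Prkcd, Pnoc in Vdr, Oprd1 in Sst, Dnah5 and Dlk1, and Oprk1 in Dlk1. The log2 values of Oprd1 in Calcrl (-0.052), Penk in Dlk1 (-0.056) and Penk in Foxp2 (-0.17) were reversed. Thinning to 4000 UMIs left 40 pairs to test and 24 called. With each library left out, 34 to 39 were called. In the fed libraries alone 28 were called, in a fit in which Pdyn had no UMI in the Dlk1 class. Between fed and fasted the count was 0 in every other fit and 2 with the replicate block, which changed no other call. The interaction gave 1 call with no filter and 0 to 1 with each library left out. Shares of nuclei moved with depth. Without thinning they were 39.9% for Pnoc in Vdr, 83.7% for Penk in Pde1c, 45.8% for Pdyn in Sst, 68.5% for Oprm1 in Pde1c, 43.3% for Oprd1 in Dlk1, 53.9% for Oprk1 in Dlk1 and 21.3% for Oprl1 in Vdr, and at 2000 UMIs 5.46% for Pnoc in Vdr and 29.7% for Oprm1 in Pde1c. The Vdr, Tac1 and Dlk1 classes, with 9 to 38 nuclei per library, set the limits on Pnoc, Oprl1, Oprd1 and Oprk1.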

Other observations

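Oligodendrocyte precursors, which entered none of the class comparisons, held 14.1, 67.1, 21.9, 8.59 and 24.0 CPM of Oprl1 in fed 1, fed 2, fed 3, fasted 1 and fasted 2, from 16 UMIs in 87 nuclei. The mean, 27.1 ± 23.2 CPM (SD, n = 5), stood beside 1.25 ± 1.95 in astrocytes, 1.04 ± 2.32 in oligodendrocytes and 23.2 ± 15.4 in the Vdr class. In the same precursors no UMI of Oprd1 or Oprk1 was counted. Library fed 2 held 8 of the 16 UMIs, and without it the mean was 17.1 ± 7.11 CPM (n = 4). With no filter on low counts, fasted and fed precursors differed by -1.04 on the log2 scale (SE 0.86, edgeR adjusted p = 0.927). After thinning to 4000 UMIs, 11.1 ± 9.34% of the precursors had an Oprl1 UMI (n = 4), or 6.43 ± 1.24% without fed 2 (n = 3). At this depth 0 of 177 astrocytes had one, which allows up to 1.69% of nuclei with a UMI, and without thinning 2 of 416 had one.

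In fed 3, from Htr2a-Cre mice, 436 of 1438 nuclei had an mCherry UMI, and no nucleus of the other libraries had any. Of the inhibitory nuclei with mCherry, thinned to 4000 UMIs, 35.0% had Penk (exact 95% interval 30.4 to 39.9, counting error only), and of those without it 31.7% (28.5 to 35.0). For Oprk1 the shares were 6.57% (4.37 to 9.41) and 3.90% (2.68 to 5.46), and for Pnoc 0.973% (0.266 to 2.47) and 1.34% (0.672 to 2.39). The intervals overlap for all 3 genes, and with 1 library there is no test.

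Interneurons of the basolateral amygdala, gated by Nkx2-1 and Lhx6, held 50.8 ± 17.0 CPM of Oprm1, 23.6 ± 19.2 CPM of Penk and 9.15 ± 4.94 CPM of Oprl1 (SD, n = 5). Barcodes outside the bounds had 4.94 to 12.7 CPM of Oprd1 and 40.5 to 88.2 CPM of Oprm1.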
